A study of Homo sapiens with 3 samples.

Results

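The oligoadenylate synthetase genes OAS1, OAS2, OAS3 and OASL were examined in HEC1B cells, an established human endometrial cancer line, after knockdown of PRMT6, an arginine methyltransferase that acts on histones and other proteins. They were taken by gene name and are 4 of 26485 genes in the count table. They were proposed because their counts in these same 3 libraries stood out, so those counts are given as a description and the 4 genes are not tested. RNA was taken at 48 h, and 3 libraries were made from 10 ng of total RNA each. The PRMT6 knockdown group holds 2 libraries, each made with its own siRNA, siPRMT6-2 and siPRMT6-1, and the control group holds 1 library with siNC, labelled wild type. Every library comes from the same cell line, and no siRNA has a second library.

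Oligoadenylate synthetases are enzymes that sense double-stranded RNA. When bound to it they join ATP into short oligoadenylates, which activate the nuclease RNase L, and RNase L then cuts cellular and viral RNA. The genes are transcribed at a low level in most resting cells and are induced by interferons through response elements bound by STAT and IRF proteins. OAS1 is the smallest enzyme, OAS2 and OAS3 are built of repeated copies of the same unit, and OASL has lost the enzymatic activity and carries ubiquitin-like domains at its end.

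The libraries held 362080 counts with siPRMT6-2, 381628 with siPRMT6-1 and 410916 with siNC. For a gene at 0 a floor of 3 counts per library was used, which is 9.09, 8.09 and 7.78 CPM in the same order. CPM are counts scaled to library sizes with TMM factors. For a count of 0 the exact Poisson interval at 95% reaches 3.69 counts, above this floor. Ratios to the floor are therefore no strict lower bounds. All intervals below are at 95% and cover counting error only. PRMT6, the targeted gene, had 7 counts with siPRMT6-2, 4 with siPRMT6-1 and 25 with siNC. The depth-scaled ratio to siNC was 0.327 for siPRMT6-2 (exact binomial interval 0.120 to 0.778) and 0.167 for siPRMT6-1 (0.0421 to 0.482). The sample titles and descriptions number the siRNAs differently, and libraries are called here by their titles. Of 10 epithelial markers, KRT8 had 770, 681 and 1329 counts in siPRMT6-2, siPRMT6-1 and siNC and KRT18 95, 85 and 129. KRT8 and KRT18 share exon bases with opposite-strand genes. EPCAM had 4, 5 and 5 counts, and KRT19 and CDH1 were at 0 in every library.

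Counts of the OAS genes lay almost solely in the siPRMT6-2 library. The 4 genes together had 481 counts with siPRMT6-2 (exact Poisson interval 439 to 526), 7 with siPRMT6-1 (2.81 to 14.4) and 4 with siNC (1.09 to 10.2). They made up 0.133% of all counts with siPRMT6-2 (exact binomial interval 0.121 to 0.145%), 0.00183% with siPRMT6-1 (0.000737 to 0.00378%) and 0.000973% with siNC (0.000265 to 0.00249%). Only OAS3 had any count outside the siPRMT6-2 library. The intervals of siPRMT6-1 and siNC overlap, and siPRMT6-2 lies far above both. With both siRNAs pooled the summed OAS level was 67.2 times siNC, and without siPRMT6-2 it was 1.82 times siNC. In RNA from bulk cells, more cells with these transcripts and more transcripts per cell cannot be told apart.

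OAS3, the largest enzyme of the family and a main activator of RNase L, had 286 counts with siPRMT6-2, 7 with siPRMT6-1 and 4 with siNC. Its level was 866 CPM with siPRMT6-2 (exact Poisson interval 769 to 973), 18.9 CPM with siPRMT6-1 (7.59 to 38.9) and 10.4 CPM with siNC (2.82 to 26.5). Its level with siPRMT6-2 was 83.6 times that with siNC (exact binomial interval 32.3 to 309) and 45.9 times that with siPRMT6-1 (22.0 to 115). With siPRMT6-1 it was 1.82 times siNC (0.463 to 8.48), a difference that was not detectable at this depth. In the siPRMT6-2 library 144 of the 26485 genes had more counts than OAS3, in siPRMT6-1 6584 genes did and in siNC 8391.

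OAS2, an enzyme with a pair of synthetase units, had 133 counts with siPRMT6-2 and 0 with both siPRMT6-1 and siNC. Its level with siPRMT6-2 was 403 CPM (exact Poisson interval 337 to 478). This is 49.8 times the floor of siPRMT6-1 (41.7 to 59.0) and 51.8 times that of siNC (43.4 to 61.4). Intervals of ratios to the floor hold the counting error of the siPRMT6-2 count alone. In siPRMT6-2 373 genes had more counts than OAS2.

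OAS1, the single-unit synthetase, and OASL, the inactive relative that takes part in RNA sensing through RIG-I, had identical counts. Each had 31 counts with siPRMT6-2 and 0 with both siPRMT6-1 and siNC. Each stood at 93.9 CPM with siPRMT6-2 (exact Poisson interval 63.8 to 133). This is 11.6 times the floor of siPRMT6-1 (7.89 to 16.5) and 12.1 times that of siNC (8.21 to 17.1). The count in siPRMT6-2 was above both other counts for each of the 4 genes. For OAS1 and OASL the ratio to the floor depends on the depth of the libraries at 0.

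**Figure D1:**
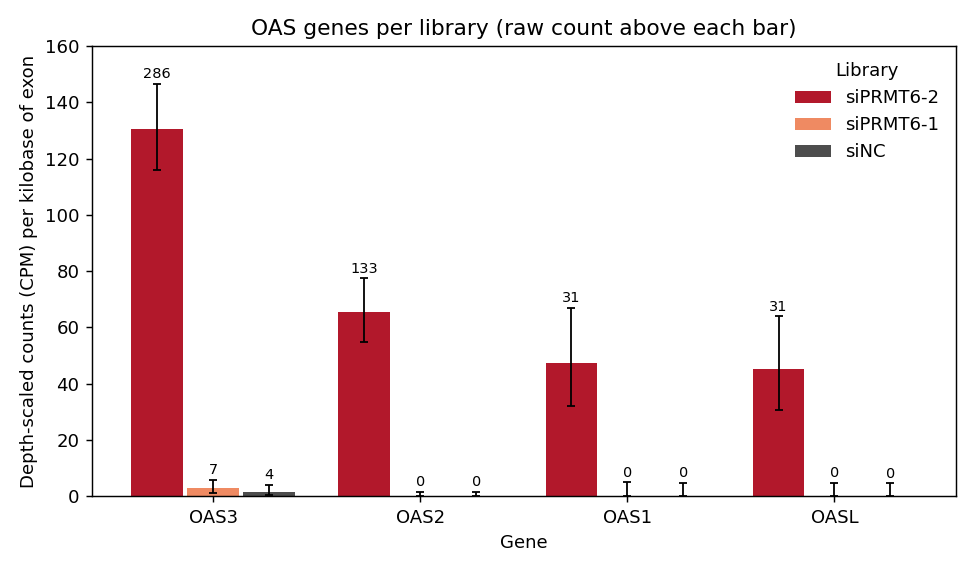
Depth-scaled counts (CPM) per kilobase of exon for each OAS gene in the siPRMT6-2, siPRMT6-1 and siNC libraries, with the raw count above each bar; bars are 1 library each and lines are exact Poisson intervals at 95%. OAS3 stands highest with siPRMT6-2 at 131 CPM per kilobase, and only OAS3 has counts in the other libraries.

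A fold of 4 or more, computed as a difference of log2 CPM with a prior count of 2, was reached by all 4 genes with siPRMT6-2 against siNC, where 114 of 6803 genes that passed the filter on low counts, or 1.68%, reached it. With siPRMT6-1 against siNC it was reached by 0 of the 4, against 13 of 6803 genes or 0.191%. With siPRMT6-2 against siPRMT6-1 it was reached by all 4, against 123 of 6803 or 1.81%. These contrasts are the ones that the genes were chosen on, and nothing is read from the counts of members. The 4 genes passed the filter through their counts in siPRMT6-2 alone. On that log2 scale the differences between siPRMT6-2 and siNC were 6.21 for OAS2, 5.78 for OAS3 and 4.17 for both OAS1 and OASL, a median of 4.97 beside 0.01 over all genes tested. With OAS1, OAS2 and OASL at their ratio to the floor the median log2 ratio was 4.65. Between siPRMT6-1 and siNC they were 0.62 for OAS3 and 0 for the other genes. These log2 values depend on the prior count where a library is at 0 and are no bounds.

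**Figure D2:**
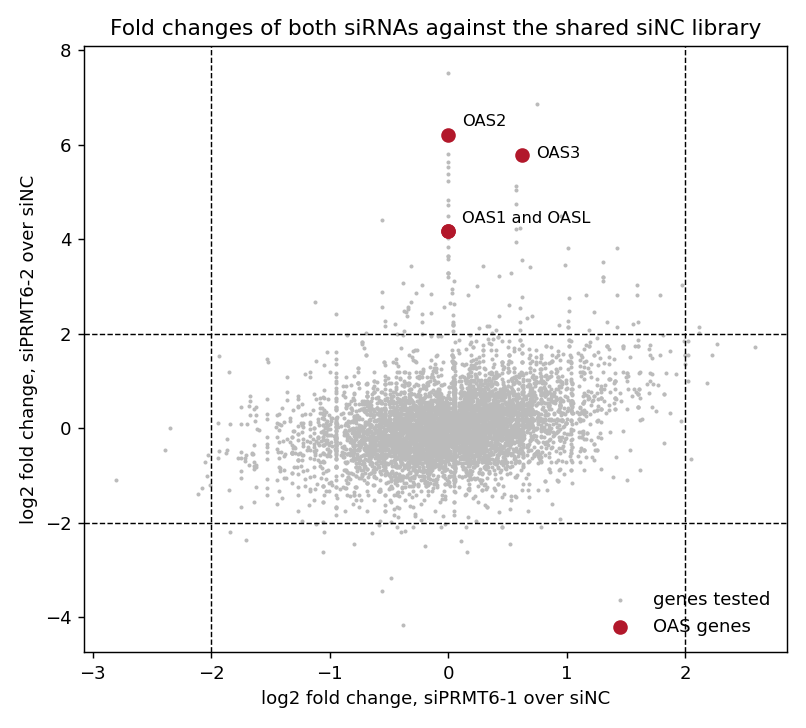
Log2 fold change of each of the 6803 genes tested with siPRMT6-1 (x axis) and siPRMT6-2 (y axis) over the siNC library that both share, with dashed lines at a fold of 4; red points are the OAS genes. The OAS genes lie at 4.17 to 6.21 on the siPRMT6-2 axis and at 0 to 0.62 on the siPRMT6-1 axis.

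Per kilobase of exon the order of the levels with siPRMT6-2 was OAS3, OAS2, OAS1 and OASL. OAS3 had 131 CPM per kilobase (exact Poisson interval 116 to 147) over 6638 exonic bases and OAS2 65.3 (54.7 to 77.4) over 6169. OAS1 had 47.2 CPM per kilobase (32.1 to 67.0) over 1989 bases and OASL 45.0 (30.6 to 63.9) over 2085. OAS3 was 2.00 times OAS2 per kilobase (exact binomial interval 1.62 to 2.47), and these neighbours differ beyond counting error. OAS2 was 1.38 times OAS1 (0.930 to 2.12) and OAS1 1.05 times OASL (0.616 to 1.78), and neither pair differs beyond it. OAS3 held 59.5% of the counts of the 4 genes in this library (54.9 to 63.9%), OAS2 27.7% (23.7 to 31.9%) and OAS1 and OASL 6.44% each (4.42 to 9.02%).

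OAS1, OAS3 and OAS2 lie in that order on the plus strand of chromosome 12 and OASL lies apart from them on the minus strand. In the deposited hg38 gene models OAS1 spans 112906934 to 112919907, OAS3 112938433 to 112973249 and OAS2 112978469 to 113011723. The gaps are 18.5 kb between OAS1 and OAS3 and 5.22 kb between OAS3 and OAS2. OASL spans 121020292 to 121039242, 8.01 Mb beyond OAS2. The models have 6 exon blocks for OAS1, 16 for OAS3, 10 for OAS2 and 6 for OASL, and counts were summed over all exons, UTRs included.

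The genes next to the cluster had other profiles. RPH3A, 8.06 kb to the left of OAS1 in the direction of lower coordinates, had 0 counts in every library, and so did the microRNA gene MIR1302-1 beyond it. DTX1, an E3 ubiquitin ligase gene of the Notch pathway 46.1 kb beyond OAS2, had 1 count with siPRMT6-2, 8 with siPRMT6-1 and 16 with siNC and a depth-scaled ratio of 0.0731 between siPRMT6-2 and siNC (exact binomial interval 0.00174 to 0.470). RASAL1, which encodes a Ras GTPase-activating protein, had 1, 7 and 8 counts in the same order. Both genes to the right of the cluster had their lowest count in the library where the OAS genes had their highest. The ratio of RASAL1 between siPRMT6-2 and siNC was 0.146 (0.00329 to 1.09), which includes no difference. Between siPRMT6-2 and siPRMT6-1 the intervals of DTX1 (0.00316 to 1.05) and RASAL1 (0.00356 to 1.25) also include it.

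To the right of OASL, P2RX7, an ATP-gated channel gene, was at 0 in every library and its relative P2RX4 had 12, 7 and 4 counts and a ratio of 3.51 between siPRMT6-2 and siNC (1.06 to 14.9). None of these neighbours was confined to siPRMT6-2 as OAS1, OAS2 and OASL were.

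**Figure D3:**
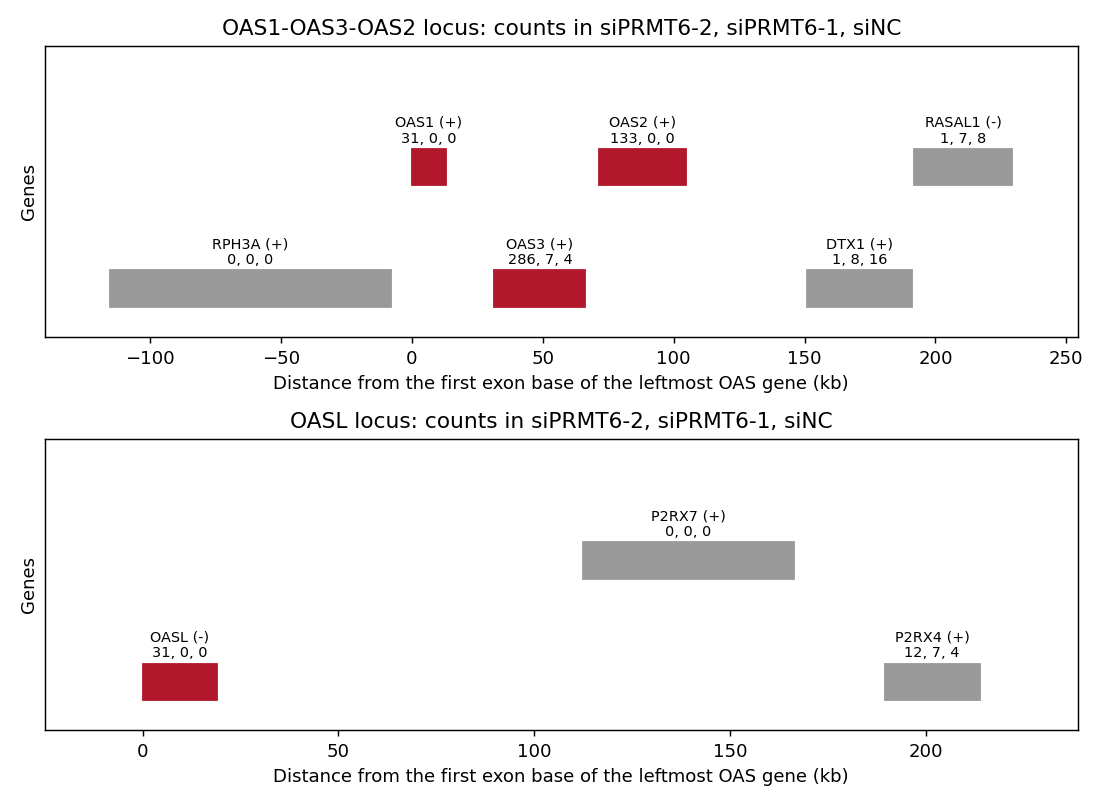
Gene spans, introns included, around the OAS1-OAS3-OAS2 cluster and around OASL, by distance in kb from the first exon base of the leftmost OAS gene, with the strand and the counts in siPRMT6-2, siPRMT6-1 and siNC under each name; the row of a box has no meaning and not every neighbour is drawn. The red OAS genes have 31 to 286 counts with siPRMT6-2, while DTX1 and RASAL1 have 1 each there.

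Per the file header the reads were counted with strand setting 1. VIM-AS1, an antisense-named gene, had 14307, 9718 and 12493 counts in siPRMT6-2, siPRMT6-1 and siNC, and VIM, which encodes the abundant filament protein vimentin on the other strand, had 392, 291 and 312. Whether the counted strand is that of the transcripts was not tested. If it is not, the OAS counts are of reads antisense to these genes. The same limit holds for the counts of PRMT6, the markers, the pathway genes and all other genes given here. None of the 4 genes shares an exon base with another gene of the deposited models on either strand. In GENCODE release 29 the antisense gene AC004551.1 runs across the OAS1-OAS3-OAS2 cluster on the minus strand, and its exons share 92 bases with OAS1, 4.63% of the exonic bases of OAS1, and 0 with OAS3, OAS2 and OASL. OAS1, OAS2 and OAS3 on the plus strand and OASL on the minus strand all had their highest count in siPRMT6-2. The genes were chosen on these counts, which do not tell whether the counted strand is that of the transcripts.

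The family members share little sequence at a length of 50 bases. Of all stretches of 50 bases in the GENCODE transcripts of the 4 genes, 0 occurred in more than one of them. Stretches shared with transcripts of other genes in the same orientation made up 0.215% of those of OAS1 and 0.615% of those of OAS3, with 0 for OAS2 and OASL. In the opposite orientation the shares were 0.878% for OAS1 and 0.495% for OAS3, and again 0 for OAS2 and OASL.

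RefSeq promoters were at hand for 2 of the 4 genes, OAS1 and OAS3, and are shown because both genes were counted together in one library and because interferon-induced genes are known for their response elements. Each is 300 bases of GRCh38.p14, 250 before the transcription start and the rest after it, on the plus strand, 5′ to 3′, at chr12:112906712-112907011 for OAS1 and chr12:112938224-112938523 for OAS3. Capitals mark matches to the core letters AANNGAAA of IRF binding sites or to the core of the interferon-stimulated response element, which is GAAA, any 2 bases and GAAA again.
OAS1: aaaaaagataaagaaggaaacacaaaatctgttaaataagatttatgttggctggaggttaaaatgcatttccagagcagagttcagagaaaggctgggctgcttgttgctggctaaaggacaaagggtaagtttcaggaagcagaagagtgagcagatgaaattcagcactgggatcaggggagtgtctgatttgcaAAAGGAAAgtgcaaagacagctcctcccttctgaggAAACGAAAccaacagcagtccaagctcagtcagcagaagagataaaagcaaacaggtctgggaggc
OAS3: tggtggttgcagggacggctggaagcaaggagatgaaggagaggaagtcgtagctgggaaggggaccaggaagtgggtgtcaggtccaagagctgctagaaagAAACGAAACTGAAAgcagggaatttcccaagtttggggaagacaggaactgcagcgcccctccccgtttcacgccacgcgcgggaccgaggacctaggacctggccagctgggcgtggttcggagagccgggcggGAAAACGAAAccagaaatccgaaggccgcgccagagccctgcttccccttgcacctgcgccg

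Both strands of each promoter were searched. The IRF core AANNGAAA matched 2 times in OAS1, with first bases at −52 and −16 from the start, and 3 times in OAS3, at −147, −141 and −10. At least 1 match was found in 22.8% of all 35116 promoters of that length. The longer core of the response element, each match of which holds an IRF core match, matched 2 times in OAS3, at −143 and −12, and 0 times in OAS1, and is held by 3.57% of all promoters. Only a spacing of 2 bases was searched. At its IRF core match at −16 the OAS1 promoter holds GAAACGAAA, which has a shorter spacing and so is no match. The gamma-activated sequence TTCNNNGAA, bound by STAT dimers, matched once in OAS1 at −168 and is held by 7.66% of promoters. The longest run of letters that both promoters have in common is AAACGAAACCA, at −16 in OAS1 and −10 in OAS3, and 5 of the 35116 promoters, these 2 included, hold it on either strand. It overlaps an IRF core match in each promoter. A match is a run of letters and not a measured site.

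**Figure D4:**
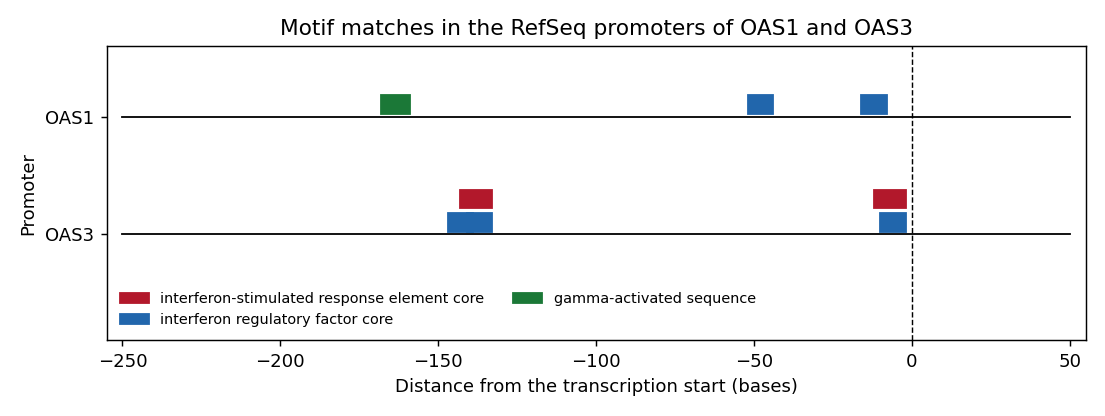
Matches to the IRF core, to the interferon-stimulated response element core and the gamma-activated sequence in the RefSeq promoters of OAS1 (upper line) and OAS3 (lower line), by distance in bases from the transcription start. Both promoters have an IRF core match close to the start, at −16 in OAS1 and −10 in OAS3.

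Genes with a profile like that of the OAS genes were sought among the 5593 genes with at least 30 counts over the 3 libraries. Likeness was the largest difference, in percentage points, between the shares of a gene's summed CPM found in each library. OAS1, OAS2 and OASL had 100% of their CPM in siPRMT6-2, and OAS3 had 96.7% there, 2.11% in siPRMT6-1 and 1.16% in siNC. Nearest to OAS3 were IFIT5 with 32, 1 and 0 counts, IFIT3 with 47, 1 and 0, and USP18, which removes the modifier ISG15 from proteins, with 58, 1 and 0, at differences of 1.16, 1.41 and 1.75 points over the 3 libraries.

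OAS1, OAS2 and OASL were at a difference of 0 from each other and from 10 further genes, which makes 13 genes, or 0.232% of the 5593, with counts in siPRMT6-2 alone. The most counted of these were IFI6, an interferon-inducible mitochondrial protein gene, with 330, the exonuclease gene ISG20 with 100, and IFITM1, which blocks entry of viruses, with 89. The others were HLA-B, CCL5, RSAD2, CCL3L1, IFIT2, IFI27 and SAMD9L, with 30 to 82 counts. Near-identical relatives can share reads with HLA-B and CCL3L1. Promoters were at hand for 9 of these 13 genes that are no OAS gene, the 10 at a difference of 0 and the 3 nearest to OAS3. The IRF core AANNGAAA was in 9 of these 9 and the response element core in 6, beside 22.8% and 3.57% of all promoters. These genes were picked on counts in the same libraries that the OAS genes were chosen on. Whether these letters bear on the counts was not tested.

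Of the genes that act with RNase L or on oligoadenylates, ABCE1, which binds RNase L and restrains it, had 45 counts with siPRMT6-2, 66 with siPRMT6-1 and 44 with siNC, giving a ratio to siNC of 1.20 for siPRMT6-2 (exact binomial interval 0.771 to 1.85) and of 1.56 for siPRMT6-1 (1.05 to 2.34). ABCE1 shares exon bases with an opposite-strand gene. PDE12, a phosphodiesterase that degrades oligoadenylates, had 9, 6 and 12 counts, and AKAP7, an anchoring protein with a phosphodiesterase-like domain, had 4, 0 and 1. The ratio of PDE12 between siPRMT6-2 and siNC was 0.877 (0.326 to 2.27) and that of AKAP7, on a single control count, was 4.68 (0.463 to 230). For the summed synthetases it was 140.6 (54.5 to 518).

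The list of other sensors of double-stranded RNA had, in sum, most counts with siPRMT6-2. It also holds genes that act with sensors or on their RNA, such as MAVS, TRIM25 and ADAR. All its genes are called sensors here for short. The 10 genes had 413 counts with siPRMT6-2, 136 with siPRMT6-1 and 145 with siNC, giving a ratio to siNC of 3.33 for siPRMT6-2 (2.75 to 4.05) and of 0.976 for siPRMT6-1 (0.767 to 1.24). Of the 8 that passed the filter, 2 (IFIH1 and EIF2AK2) did so through siPRMT6-2 alone and had to be high there. Of the other 6, 6 were higher than siNC with siPRMT6-2, with a median log2 difference of 1.28, beside 3461 of all 6803 genes tested and a median of 0.01. With siPRMT6-1 2 of these 6 were higher and 4 lower, with a median of −0.24, beside 3429 higher genes of 6803. The gene lists were chosen with earlier results of these data known, so these numbers are a description and no test. ADAR, which edits double-stranded RNA and so hides it from sensors, had 118, 47 and 38 counts in siPRMT6-2, siPRMT6-1 and siNC, 3.63 times siNC with siPRMT6-2 (2.50 to 5.38). ZNFX1, a helicase-like sensor gene that shares exon bases with an opposite-strand gene, had 128, 20 and 27, 5.54 times siNC (3.64 to 8.73).

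IFIH1, the gene of the sensor MDA5, had 24, 2 and 2 counts in the same order, and a ratio of 14.0 between siPRMT6-2 and siNC (3.48 to 122). EIF2AK2, the gene of the kinase PKR, which stops translation on double-stranded RNA, had 13, 4 and 3, 5.07 times siNC (1.39 to 27.7). DDX58, the gene of RIG-I, had 20, 12 and 7, and MAVS, the adaptor of RIG-I and MDA5, had 26, 18 and 23. TRIM25, a ubiquitin ligase that activates RIG-I, had 51, 22 and 27, and its ratio between siPRMT6-2 and siNC was 2.21 (1.36 to 3.66). The interval of MAVS with siPRMT6-2 against siNC, 0.725 to 2.42, includes no difference. So does that of PRKRA, also on this list, with a ratio of 1.56 (0.811 to 3.05).

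**Figure D5:**
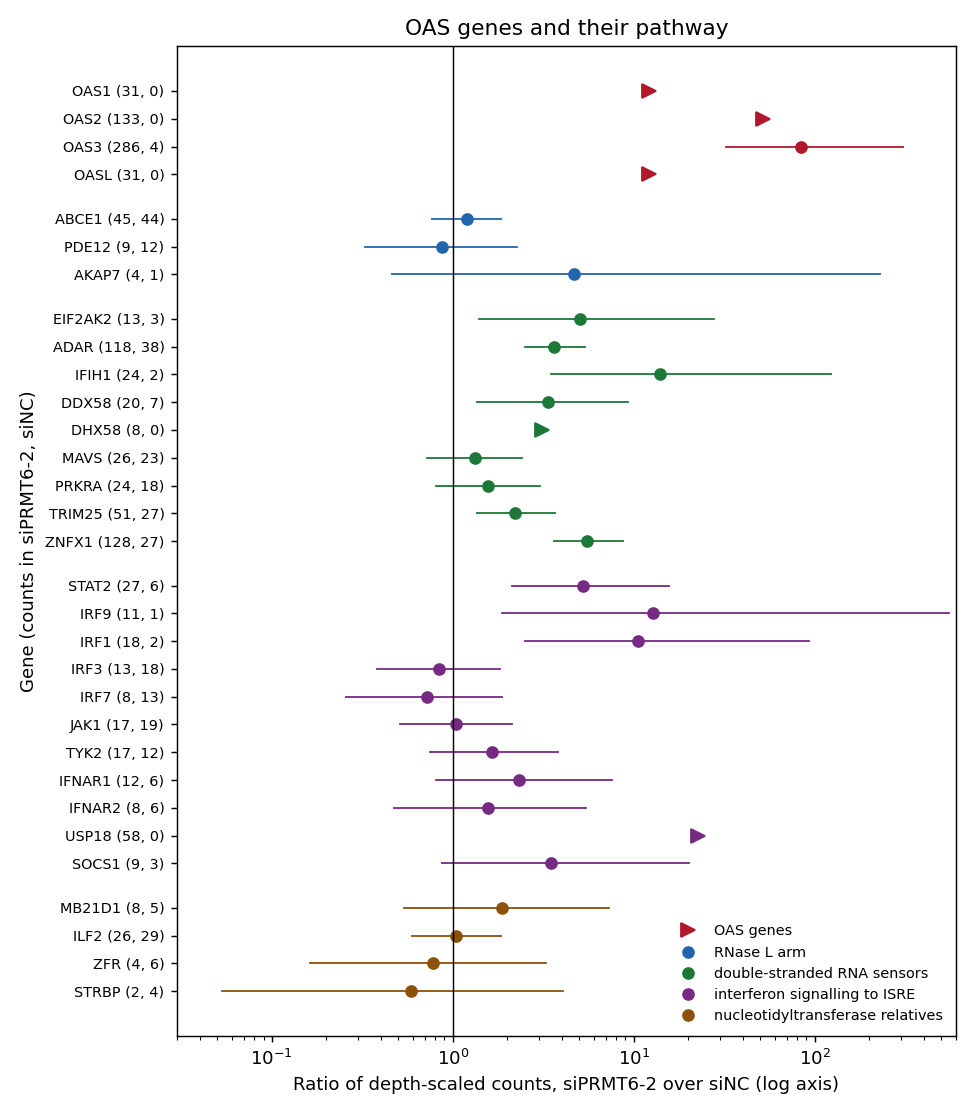
Ratio of depth-scaled counts in siPRMT6-2 over siNC on a log axis, for the OAS genes and genes of their pathway. Lines are exact binomial intervals at 95%. Triangles, drawn without an interval, are ratios to the floor of 3 counts where siNC has 0. The counts of both libraries stand beside each name. Genes with no more than 3 counts in both libraries, and some others, are left out. OAS3 lies at 83.6, ADAR at 3.63 and ABCE1 at 1.20.

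Among genes that carry the interferon signal to the response elements, STAT2 and IRF9, parts of the complex that binds them, were highest with siPRMT6-2. STAT2, IRF1 and USP18 passed the filter through siPRMT6-2 alone and had to be high there, and IRF9 did not pass it. STAT2 had 27 counts with siPRMT6-2, 4 with siPRMT6-1 and 6 with siNC, 5.26 times siNC with siPRMT6-2 (2.13 to 15.6), and IRF9, the DNA-binding part, had 11, 1 and 1, 12.9 times siNC (1.87 to 553). IRF1, a factor induced by interferon-gamma, had 18, 6 and 2, 10.5 times siNC (2.52 to 93.5). USP18, which also dampens the interferon receptor, stood with siPRMT6-2 at 22.6 times the floor of siNC (17.2 to 29.2).

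Upstream of that complex, IFNAR1, a chain of the type I interferon receptor, had 12, 9 and 6 counts, and the receptor kinases JAK1 and TYK2 had 17, 17 and 19 and 17, 15 and 12. The ratio between siPRMT6-2 and siNC was 2.34 for IFNAR1 (0.812 to 7.59), 1.05 for JAK1 (0.511 to 2.13) and 1.66 for TYK2 (0.745 to 3.80), and each interval includes no difference. IRF3 had 13, 22 and 18 and IRF7 8, 21 and 13, with IRF7 at 0.719 times siNC with siPRMT6-2 (0.258 to 1.87). JAK1 and IRF3 share exon bases with opposite-strand genes. Over the 14 genes of the list 9 passed the filter, 4 of them (STAT2, IRF1, IFNAR1 and USP18) through siPRMT6-2 alone. With siPRMT6-2 against siNC, 3 of the remaining 5 stood higher and 2 lower, and with siPRMT6-1 the numbers were alike. Their median log2 difference from siNC was 0.058 with siPRMT6-2 and 0.31 with siPRMT6-1, beside 0.01 over all genes tested for both. Interferon ligands had 9, 0 and 1 counts in sum over 7 genes, of which 5 were at 0 in every library, IFNB1 and IFNG among them, and IFNL1 had 7, 0 and 1.

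Among relatives of the synthetases by protein fold, MB21D1, the gene of the DNA sensor cGAS, whose enzyme shares the nucleotidyltransferase fold of the OAS proteins, had 8, 10 and 5 counts and a ratio of 1.87 between siPRMT6-2 and siNC (0.539 to 7.27). ILF2, which shares exon bases with an opposite-strand gene, had 26, 33 and 29 counts and a ratio of 1.05 (0.593 to 1.84). MB21D2, a further relative, had 1, 0 and 3 counts.

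OASL ends in ubiquitin-like domains, and genes of ubiquitin and its relatives split. ISG15, the interferon-induced modifier made of ubiquitin-like domains, had 308, 3 and 1 counts and, on a single control count, a ratio of 360 between siPRMT6-2 and siNC (64.1 to 14266). The ubiquitin gene UBB had 52, 63 and 62 counts, and its ratio between siPRMT6-2 and siNC was 0.980 (0.665 to 1.44).

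Over all genes, the edgeR quasi-likelihood test of both PRMT6 knockdown libraries against siNC called 0 of 6803 genes (0.0%) at an adjusted p under 0.05, with 186 genes at an unadjusted p under 0.05, and DESeq2 called 0, with 13 at an unadjusted p under 0.05. So 0 of 2 tested genes that act with RNase L, 0 of 8 sensors, 0 of 9 signalling genes, 0 of 3 nucleotidyltransferase relatives and 0 of 6 ubiquitin-like genes passed in either direction, with 0, 1 (ADAR), 2 (IRF1 and USP18), 0 and 1 (ISG15) at an unadjusted p under 0.05 in the edgeR test. With the older form of the quasi-likelihood fit edgeR called 32 genes or 0.47% of the 6803 and its likelihood ratio test 31 or 0.456%. Of the listed genes that are no OAS gene each called USP18 and ISG15, both higher, and no other. In simulated data of the same design the edgeR quasi-likelihood test recovered 14.0% of 4-fold changes and 97.7% of 16-fold changes. A gene that was not called may therefore still differ by 4-fold, or by more where the siRNAs disagree. ISG15, with 308, 3 and 1 counts in siPRMT6-2, siPRMT6-1 and siNC, was not called by the quasi-likelihood test. How well that test recovers a change present with a single siRNA was not tested. The spread in these tests is that between the 2 siRNAs. The labels do not tell separate cultures from repeat libraries, so p-values speak for the variation among these 3 libraries alone, which may be technical.

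Markers of leukocytes, cells in which OAS transcripts are also found, were counted in the same libraries. PTPRC, CD3E, MS4A1, CD14 and HLA-DRA were at 0 in every library. In sum the 11 markers had 66 counts with siPRMT6-2, 28 with siPRMT6-1 and 25 with siNC, 3.09 times siNC with siPRMT6-2 (1.92 to 5.10). The lysosomal gene CD68 had 56, 19 and 17 counts and a ratio of 3.85 between siPRMT6-2 and siNC (2.20 to 7.07), and the receptor gene CSF1R had 8, 6 and 7 and a ratio of 1.34 (0.423 to 4.33). The part of such cells in the OAS counts was not tested. Fibroblast and endothelial markers had 378, 378 and 550 counts over 10 genes, with 6 of them at 0 in every library and COL1A1 at 370, 354 and 515.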

How the data were processed

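The submitters' processing notes name STAR 2.7.8a, featureCounts 2.0.10 and hg38. The count table itself was written by featureCounts 2.0.1, per the file headers, with exons grouped by gene name in UCSC gene models, strand setting 1, and a read in several overlapping genes added to each. Names of the aligned files hold the marks umi and dedup. Values were deposited as raw counts, whole numbers for each gene. Columns were matched to samples through the labels' descriptions.

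Genes were kept with filterByExpr (minimum count 10, minimum total 15). TMM library sizes, the edgeR 4.0.16 quasi-likelihood test (R 4.3.3, 1 residual degree of freedom, Benjamini-Hochberg adjustment) and DESeq2 1.42.0 were used, and the edgeR step was tested on simulated data. Ratios and intervals came from SciPy 1.17.1. Intervals and floors cover counting error only. The members and gene lists were chosen with earlier results of these data known. Genes named are the members, the listed pathway genes and markers, PRMT6, the genes next to each locus, and the 3 nearest profiles per member; VIM and VIM-AS1 and the further genes with counts in siPRMT6-2 alone were named after their values were seen. Promoter sequences are RefSeq's. Some listed and neighbouring genes are not reported here.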

Additional observations from a re-analysis of the deposited data

How the results depend on the processing

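The scaling was also taken from DESeq2 size factors, from column totals alone and from genes with no opposite-strand overlap. Then 27 of 27 ratios of single OAS genes and 12 of 12 of their sum stayed within the counting interval of the reported value. The scalings move ratios little beside these intervals, for OAS2 against siNC from 51.8 to 49.8 with an interval of 43.4 to 61.4. Staying within them is thus no strong test. All 4 genes kept a fold of 4 or more with siPRMT6-2 against siNC and against siPRMT6-1, and 0 of 4 reached it with siPRMT6-1 against siNC, under these scalings, without a filter, with at least 30 counts over the libraries and with a prior count of 0.5. The OAS sum over both siRNAs pooled was 67.2 times siNC and rests on siPRMT6-2. With a single siRNA left out it was 1.82 to 140.6 times siNC, the lowest without siPRMT6-2.

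The number of genes with a fold of 4 or more depends on low counts. With siPRMT6-2 against siNC it was 72 with at least 30 counts, beside 114. With siPRMT6-1 against siNC it was 29 without a filter, 5 with at least 30 counts and 57 with a prior count of 0.5, beside 13. The older edgeR fit called 32 genes and the likelihood ratio test 31, where the quasi-likelihood test called 0, and the cause was not tested. No paired analysis was possible because there is a single siNC library, so the groups share fewer than 2 replicate numbers. Depth limits OAS1, OAS2 and OASL outside siPRMT6-2 to the floor of 3 counts, and there is 1 library per siRNA and 1 control.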
